A study of Mus musculus with 6 samples.

Results

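The genes described are 9 parts of the JAK-STAT route by which cytokine receptors reach the nucleus: the kinase gene Jak3, the transducer genes Stat3, Stat4, Stat5a and Stat5b, and the inhibitor genes Socs1, Socs2, Socs3 and Cish. They were chosen by name, with earlier results of these data known. All 9 were found among the 17985 genes of an RNA-seq table of iNKT1 cells from the thymus. iNKT1 cells are the T-bet-expressing, interferon-producing subset of invariant natural killer T cells. Control mice (Ctrl, 3 libraries) had the genotype Tbx21CreTg;Rosa26-LSL-YFP+/+, so that Cre was driven by Tbx21, the gene for T-bet, and cells that had expressed Cre carried a yellow fluorescent reporter. Mice of the second group (cKO, 3 libraries) had in addition loxP-flanked Tgfbr2 alleles (Tgfbr2F/F), which Cre is meant to remove in the same cells. Both groups were on the C57BL/6 background and untreated, and both carried the Cre transgene and the reporter. The age of the mice, and whether each library came from its own animal, are not given in the sources used here, so the p-values measure the spread between libraries, which may be partly technical.

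Cytokine receptors of the common gamma chain, IL-12 and gp130 families have no enzyme activity of their own. Janus kinases bound to their tails phosphorylate the receptor and then STAT proteins, which pair, enter the nucleus and switch on genes. JAK3 sits on the common gamma chain and so serves IL-2, IL-4, IL-7, IL-15 and IL-21. STAT5A and STAT5B carry the IL-2, IL-7 and IL-15 signals, STAT4 carries the IL-12 signal that drives interferon gamma production, and STAT3 serves gp130 receptors and IL-21. CISH and the SOCS proteins are made in response to STATs and bind receptors or kinases through an SH2 domain, closing a negative feedback loop. iNKT1 cells depend on IL-15 and respond to IL-12, and the transcript of a feedback gene reports on both its synthesis and its decay, not on the phosphorylation of a STAT.

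Libraries held between 28832779 and 68092478 reads. Values are in CPM, reads scaled to a common total per library, and every one of the 9 genes had at least 588 reads in every library. The share of counting error in the spread between libraries was not measured. A test was made with limma on log2(CPM + 1) for the 15691 genes whose 6 libraries averaged 1 CPM or more, and a gene was called at a Benjamini-Hochberg adjusted p under 0.05. Both replicate 3 libraries stood apart from the other 4, with 4406 (Ctrl) and 4590 (cKO) genes at 0 reads against at most 5 elsewhere, and a second fit took the replicate number as a block. The targeted gene was lower in every library labelled cKO: Tgfbr2 read 461, 461 and 425 CPM in Ctrl replicates 1 to 3 and 289.8, 257.6 and 274 CPM in cKO. By limma its adjusted p was 0.0207 on group alone and 0.00160 with the block. The former call was lost under edgeR (0.0620) and in 5 of the 6 fits that each left out a library (adjusted p from 0.0299 to 0.155 over the 6), and the authors' deposited table gives Tgfbr2 a log2 fold change of -0.64 with an adjusted p of 0.373. Which exons are flanked is not given in the sources used here, and reads outside them would still be counted. The iNKT1 markers were all present (the summed level of the 8 ran from 8601 to 10430 CPM in Ctrl and from 8730 to 12140 CPM in cKO). Klrb1c, 1 of the 8, was lowest in Ctrl replicate 2. It read 566, 179.9 and 703 CPM in Ctrl replicates 1 to 3 and 640, 870 and 1021 CPM in cKO, and was not called in either fit. The summed markers of erythroid cells, B cells, thymic epithelium, myeloid cells and double-positive thymocytes stayed at or under 22.3 CPM in every library, and those of iNKT17 cells at or under 8.59 CPM. The 4 iNKT2 markers summed to between 400.0 and 538 CPM in Ctrl and between 347 and 502 CPM in cKO. Il4, 1 of these, read 24.6, 37.5 and 44.3 CPM in Ctrl and 14.4, 20.9 and 20.4 CPM in cKO and fell with the block (log2 fold change -0.88, adjusted p 0.00806, and 0.421 on group alone). The 4 NK cell markers, chiefly Klrc2, summed to between 72.1 and 235 CPM in Ctrl and between 109 and 192 CPM in cKO, and none of the 3 tested was called in either fit. The part of iNKT2 or NK cells in the results was not tested. In bulk libraries a transcript present in fewer cells cannot be told apart from less transcript in each cell.

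Socs3 was called higher in cKO in the limma fit on group alone. Once the replicate number was taken into account, Cish was also called lower and Stat4 higher. DESeq2, run without the replicate block, called all 3. Socs3 rose 2.0-fold from a low level, Cish was at 40.0% of its Ctrl mean and Stat4 was at 1.41 times its Ctrl mean. The other 6 genes (Jak3, Stat3, Stat5a, Stat5b, Socs1 and Socs2) had overlapping groups and log2 fold changes between -0.19 and 0.085. In the fit on group alone 1 of the 9 was called (Socs3, higher), where 0.663% of all tested genes were called, 0.204% higher and 0.459% lower. With the replicate block 3 of the 9 were called (Socs3 and Stat4 higher, Cish lower), where 2.87% of all tested genes were called, 1.24% higher and 1.64% lower. The groups did not overlap for these same 3 genes, 2 with cKO above and 1 with cKO below, where 11% of all tested genes did not overlap, 3.89% above and 7.1% below. In replicates 1 and 2 alone 2 of the 9 were called (Socs3 and Stat4), against 1.72% of the genes tested there. The median log2 fold change of the 9 was -0.0043, and that of all genes tested was -0.038. Since the 9 genes were chosen with earlier results of these data known, these counts and shares are a description without a test.

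**Figure D1:**
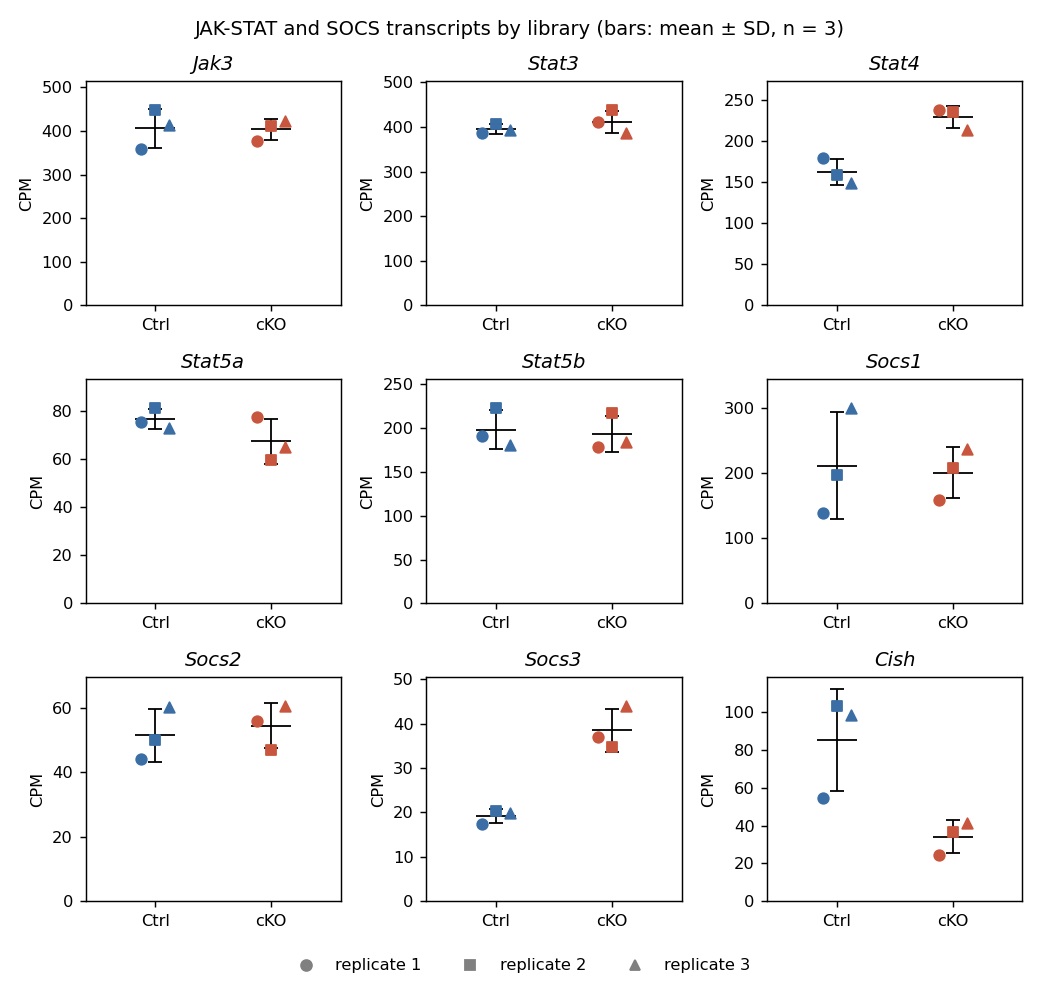
CPM (vertical axes from 0) of the 9 genes in each of the 3 Ctrl and 3 cKO libraries. Points are libraries, with the marker shape giving the replicate number, and bars are mean ± SD (n = 3). Socs3 and Stat4 lie higher in every cKO library than in any Ctrl library, Cish lies lower, and the other 6 genes overlap.

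The kinase gene came first. Jak3 (ENSMUSG00000031805, chromosome 8, 71676296 to 71690575, plus strand) encodes the kinase that works only with the common gamma chain. Jak3 read 358, 447 and 413 CPM in Ctrl replicates 1 to 3 and 376, 412 and 423 CPM in cKO. All 3 cKO values lay inside the Ctrl range. The log2 fold change was -0.0043, with a 95% interval from -0.26 to 0.25, and the sign turned under the scaling alternatives. The last 1362 bp of Jak3 are shared with Insl3 on the same strand. Insl3 was listed in the table as a gene of its own, and how the counting treated reads in the shared stretch is not given in the sources used here.

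The transducer genes of chromosome 11 lie side by side, with Stat5b (ENSMUSG00000020919, 100780731 to 100850724, minus strand), Stat5a (ENSMUSG00000004043, 100859351 to 100885169, plus strand) and Stat3 (ENSMUSG00000004040, 100885098 to 100939540, minus strand) within 158810 bp. Stat5a and Stat3 run towards each other and overlap by 72 bp at their 3′ ends. Reads in that stretch cannot be assigned to one of the pair without strand, and the strand setting is not given in the sources used here. None of this cluster was called, and all 3 kept overlapping groups.

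Stat3 read 386, 407 and 394 CPM in Ctrl and 410, 437 and 386 CPM in cKO. Its libraries were the closest together of the 9 genes, spanning 0.18 on the log2 scale. Stat3 thus had a log2 fold change of 0.054 (95% interval -0.14 to 0.25). Stat5b, the more abundant STAT5 gene here, read 192, 223 and 180 CPM in Ctrl and 179, 217 and 185 CPM in cKO. Replicate 2 was the highest library of Stat5b in both groups. For Stat5b the log2 fold change was -0.033 (95% interval -0.32 to 0.25).

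Stat5a read 75.3, 81.0 and 72.9 CPM in Ctrl and 77.5, 59.5 and 64.8 CPM in cKO. cKO replicates 2 and 3 were below all Ctrl libraries and cKO replicate 1 was not. For Stat5a the log2 fold change was -0.19 (95% interval -0.47 to 0.093), and with the replicate block the adjusted p was 0.575. Within a library, where no scaling between libraries enters, log2 of Stat5a over Stat5b was -1.37 ± 0.0787 in Ctrl and -1.53 ± 0.332 in cKO (SD, n = 3 each), so that the balance of the 2 STAT5 transcripts differed between the groups by less than the spread of the cKO libraries.

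Stat4 (ENSMUSG00000062939, chromosome 1, 51987148 to 52107189, plus strand) encodes the transducer of IL-12. It read 180, 159 and 149 CPM in Ctrl replicates 1 to 3 and 238, 236 and 214 CPM in cKO. Every cKO library was above every Ctrl library. Means were 163 ± 15.5 CPM for Ctrl and 229 ± 13.4 CPM for cKO (SD over 3 libraries each). On the log2 scale this was a difference of 0.49 (standard error 0.099, 95% interval 0.26 to 0.73). The limma adjusted p was 0.141 in the fit on group alone and 0.0122 with the replicate block, where Stat4 rose. In the authors' deposited table Stat4 was not marked, with a log2 fold change of 0.56 and an adjusted p of 0.710. Pair by pair the log2 difference was 0.40, 0.56 and 0.52 in replicates 1 to 3. Within libraries log2 of Stat4 over Stat3 moved from -1.28 ± 0.158 to -0.84 ± 0.0523 (SD, n = 3 each), again without overlap. Over Stat5b it moved from a mean of -0.28 in Ctrl to 0.25 in cKO. Over Jak3 the groups all but touched, at -0.9949 in Ctrl replicate 1 and -0.9845 in cKO replicate 3. A long gene on the same strand, listed without a symbol (Gm28177 in GENCODE M21), overlaps the last 29929 bp of Stat4.

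Since Stat4 was higher throughout, the 250 bases before each of its RefSeq start sites (build GRCm38.p6, plus strand) are shown. The windows are chr1:51986898-51987147 and chr1:52007990-52008239, and neither overlaps a Stat4 exon in GENCODE M21, the second lying inside the gene. Capitals mark CAGAC on either strand, the short element that SMAD proteins, the transducers of TGF-beta, are known to bind.
Stat4 upstream start: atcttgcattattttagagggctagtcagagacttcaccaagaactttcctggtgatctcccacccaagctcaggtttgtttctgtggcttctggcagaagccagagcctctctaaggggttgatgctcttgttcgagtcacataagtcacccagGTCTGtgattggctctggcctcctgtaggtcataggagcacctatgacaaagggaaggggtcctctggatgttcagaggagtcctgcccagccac
Stat4 downstream start: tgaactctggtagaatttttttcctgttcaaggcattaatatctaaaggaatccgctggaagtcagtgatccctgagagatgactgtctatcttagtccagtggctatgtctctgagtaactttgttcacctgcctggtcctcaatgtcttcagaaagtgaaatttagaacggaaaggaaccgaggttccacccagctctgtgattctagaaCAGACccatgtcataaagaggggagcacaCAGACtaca
The first window holds 1 such match and the second holds 2, in a motif so short that 42.2% of all 32851 RefSeq promoter windows of 250 bases hold at least 1. Of all these windows 11.7% hold 2 or more. Neither window holds TTCNNNGAA, the palindrome bound by STAT dimers, searched on both strands. A match is a description of letters, not a site.

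The inhibitor genes divided. Socs3 (ENSMUSG00000053113, chromosome 11, 117966079 to 117970047, minus strand) encodes the inhibitor that binds gp130, the IL-12 receptor beta 2 chain and JAKs. It read 17.5, 20.4 and 19.9 CPM in Ctrl replicates 1 to 3 and 37.0, 34.6 and 43.9 CPM in cKO. The groups were far apart, with the lowest cKO library 1.70 times the highest Ctrl library. Socs3 rose from a mean of 19.3 ± 1.57 CPM to 38.5 ± 4.82 CPM (SD over 3 libraries each). This was 0.96 on the log2 scale (standard error 0.13, 95% interval 0.64 to 1.27), with a limma adjusted p of 0.0352. With the block the adjusted p was 0.00481. The pairwise log2 differences were 1.04, 0.73 and 1.10. Leaving out any one of the 6 libraries ended the call, with limma adjusted p values from 0.0592 to 0.169 at log2 fold changes from 0.86 to 1.03, in fits that called 0.145, 0.091 and 0.171% of all genes without Ctrl replicates 1, 2 and 3 and 0.473, 0.141 and 0.592% without cKO replicates 1, 2 and 3. In the authors' deposited table Socs3 was marked higher, with a log2 fold change of 1.07 and an adjusted p of 0.00667, a table in which 0.918% of the tested genes had an adjusted p under 0.05 and 0.701% were marked. Immediate early and stress genes, a list with which Socs3 shares rapid induction, were higher in cKO for 7 of 8 tested members, none called with or without the block. Their summed level ran from 413 to 557 CPM in Ctrl and from 462 to 596 CPM in cKO. Their part in the Socs3 result was not tested.

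The stretch upstream of the RefSeq start of Socs3 is shown because Socs3 was the 1 gene called in both fits and its window was the only one, among the windows found for 8 of the 9 genes, to hold the STAT palindrome. It is chr11:117969452-117969616 on the minus strand of GRCm38.p6, from 250 to 86 bases before the start. The stretch lies inside the Socs3 gene as annotated, which reaches 117970047. The part nearer the start is left out because it overlaps an exon of another Socs3 transcript. Capitals mark TTCNNNGAA.
Socs3 upstream stretch: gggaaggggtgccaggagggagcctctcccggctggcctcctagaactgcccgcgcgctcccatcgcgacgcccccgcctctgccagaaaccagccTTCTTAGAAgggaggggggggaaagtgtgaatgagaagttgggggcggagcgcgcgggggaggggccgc
The match lies from 154 to 146 bases before the start, and 7.02% of all RefSeq windows of this length hold at least 1. No CAGAC was found in the 250 bases. The Cish window (chr9:107296409-107296658, plus strand) lies wholly in an annotated first exon and holds neither motif, which says only that these letters are not in that window. CAGAC was also found 4 times in 1 Stat5a window and 2 times, overlapping, in 1 Stat5b window, and not in those of Jak3, Stat3 or Socs1. Of all RefSeq windows 0.475% hold 4 or more and 11.7% hold 2 or more. Neither Stat5a nor Stat5b was called in either fit.

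Cish (ENSMUSG00000032578, chromosome 9, 107296026 to 107302784, plus strand) encodes the founding member of the family, a STAT5 target that damps IL-2 and antigen receptor signals. It read 54.3, 103 and 98.5 CPM in Ctrl replicates 1 to 3 and 24.4, 36.6 and 41.3 CPM in cKO. Ctrl replicate 1 was the lowest Ctrl library and cKO replicate 1 the lowest cKO library, but the highest cKO library lay under the lowest Ctrl library. Means were 85.2 ± 26.9 CPM for Ctrl and 34.1 ± 8.75 CPM for cKO (SD over 3 libraries each). The log2 fold change was -1.27 (95% interval -1.98 to -0.57), with a limma adjusted p of 0.239 in the fit on group alone. With the replicate block the interval narrowed to -1.52 to -1.03, and Cish fell with an adjusted p of 0.000406. The pairwise log2 differences were -1.12, -1.46 and -1.23. In the authors' deposited table Cish was marked lower, with a log2 fold change of -1.24 and an adjusted p of 0.00203. GENCODE M21 places 2 genes on the opposite strand, Gm17040 and Gm17041, over 1167 and 1459 bp of Cish, whose reads cannot be told apart from those of Cish if strand was not used. Tgfbr2 is also on chromosome 9, and only cKO mice carried its loxP-flanked alleles. Whether DNA linked to those alleles differed between the groups is not given in the sources used here, and its part in the Cish result was not tested.

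Cish and Socs3 thus stood in opposite directions in the same libraries. Log2 of Cish over Socs3 was 1.64, 2.33 and 2.30 in Ctrl replicates 1 to 3 and -0.60, 0.082 and -0.087 in cKO. Cish was therefore the more read transcript of the pair in all 3 Ctrl libraries, and the pair was nearly equal in cKO replicates 2 and 3. The ratio needs no scaling between libraries, and its group means differed by -2.29 against SDs of 0.396 and 0.356. Against Socs1 and against Socs2, log2 of the Cish ratio was also lower in every cKO library, with mean differences of -1.28 and -1.39. Since both transcripts were chosen with these values known, this is a description without a test.

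Socs1 (ENSMUSG00000038037, chromosome 16, 10783808 to 10785536, minus strand) encodes the inhibitor that blocks JAK catalysis and restrains interferon gamma signals. It read 138, 196 and 299.7 CPM in Ctrl and 159, 208 and 236 CPM in cKO. It was the gene with the widest spread within Ctrl, spanning 1.11 on the log2 scale, and the spread followed the replicate number, with means of 148.5, 202 and 268 CPM over the 2 libraries of replicates 1, 2 and 3. For Socs1 the log2 fold change was -0.021, with a wide 95% interval from -0.71 to 0.66 on group alone and from -0.27 to 0.23 with the block. It was higher in cKO in replicates 1 and 2 and lower in replicate 3, and its sign turned with the scaling.

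Socs2 (ENSMUSG00000020027, chromosome 10, 95385362 to 95417180, minus strand) encodes the inhibitor best known for limiting growth hormone signals and is, like Cish, a STAT5 target. It read 44.1, 50.01 and 60.2 CPM in Ctrl and 55.9, 46.9 and 60.4 CPM in cKO. The groups overlapped, and the log2 fold change was 0.085 (95% interval -0.27 to 0.44). The interval of Socs2 with the block, from -0.18 to 0.35, does not reach the values of Cish.

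**Figure D2:**
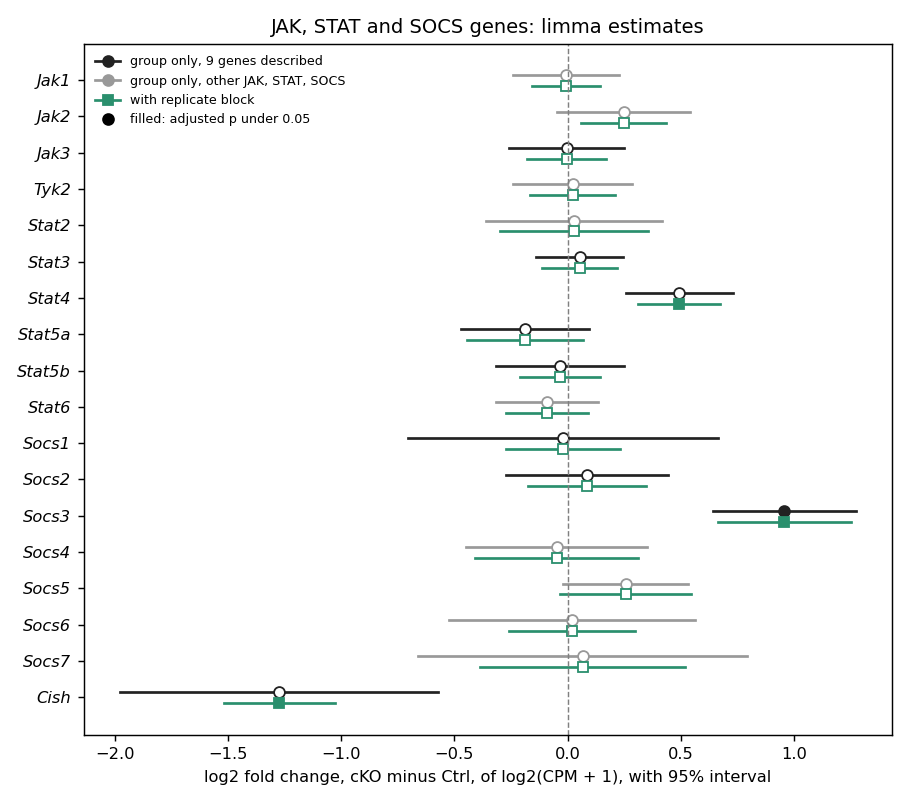
Log2 fold change, cKO minus Ctrl, of log2(CPM + 1) with the 95% limma interval, for the 18 JAK, STAT and SOCS family genes reported (vertical axis). Circles are the fit on group alone and squares the fit with the replicate block, filled where the adjusted p is under 0.05. Socs3 is filled in both fits, Stat4 and Cish with the block, and no other gene in either.

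To compare genes with each other, levels were divided by the exon length of GENCODE M21 and are given in CPM per kb. In Ctrl the order was Jak3 (75.9 ± 8.40), Socs1 (72.7 ± 28.1), Stat4 (42.1 ± 4.0), Stat3 (41.5 ± 1.11), Stat5b (35.8 ± 3.96), Cish (13.3 ± 4.19), Stat5a (10.7 ± 0.585), Socs3 (6.67 ± 0.544) and Socs2 (5.40 ± 0.857), each in CPM per kb with the SD over 3 libraries. Neighbours whose libraries overlapped in Ctrl were Jak3 with Socs1, Stat4 with Stat3, Cish with Stat5a and Socs3 with Socs2. In cKO, Stat4 reached 59.2 ± 3.45 CPM per kb and no longer overlapped Stat3 at 43.2 ± 2.70. Socs3 stood at 13.3 ± 1.67 CPM per kb in cKO, above Stat5a at 9.43 ± 1.30, and Cish at 5.31 ± 1.36 became the lowest of the 9, overlapping Socs2. The place of Socs1 is the least certain, since its gene model in the deposited table is shorter than that of GENCODE M21. Divided by the 1220 bp of that shorter model, Socs1 would be at 173.3 CPM per kb in Ctrl and 164.7 in cKO. It would then stand above the level given for Jak3 in both groups. The lengths deposited with the table were not used for levels, since that of Jak3, at 17417 bp, exceeds the 14280 bp that the gene spans.

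**Figure D3:**
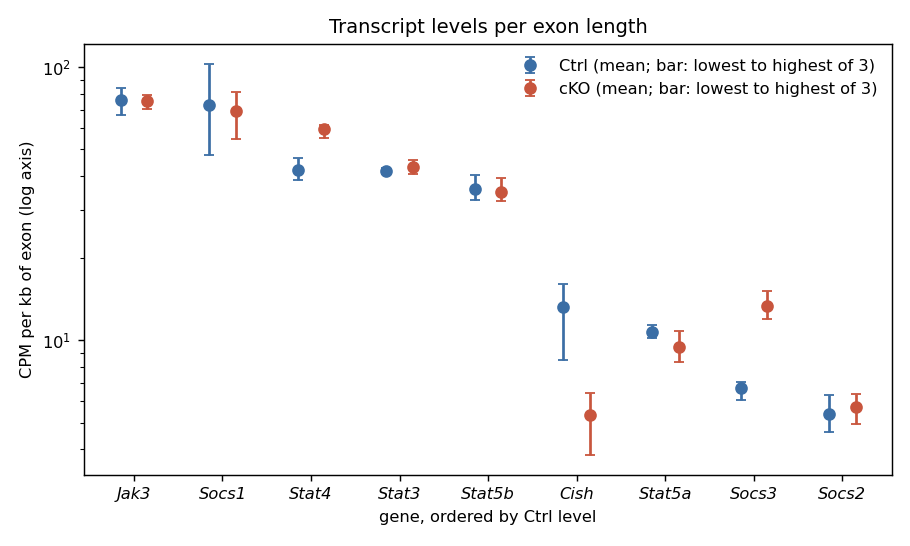
Level per kb of exon (log axis) of the 9 genes, ordered by their Ctrl mean. Points are means and bars run from the lowest to the highest of 3 libraries. Jak3, Socs1 and the 3 genes Stat4, Stat3 and Stat5b lie above 30 CPM per kb in both groups, and Cish lies above Socs3 in Ctrl and below it in cKO.

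None of the other JAK, STAT and SOCS genes reported here was called. Among the other kinases and transducers, 0 of 5 passed in either fit, and their median log2 fold change was 0.023. Jak1, the partner of JAK3 and the most abundant of the kinases, averaged 1395 ± 119 CPM for Ctrl and 1388 ± 107 CPM for cKO (SD over 3 libraries each). Jak2 and Tyk2, the kinases of the IL-12 receptor, had log2 fold changes of 0.25 (95% interval -0.046 to 0.54) and 0.023 (-0.24 to 0.29). Jak2 was higher in cKO in all 3 pairs, with an adjusted p of 0.226 under the block. Stat2 had a log2 fold change of 0.028 and Stat6, the transducer of IL-4, of -0.092. Of the other SOCS genes, 0 of 4 passed, with log2 fold changes of -0.049 for Socs4, 0.26 for Socs5, 0.020 for Socs6 and 0.067 for Socs7. Socs5 was higher in every cKO library than in any Ctrl library, at 30.6 ± 2.34 and 36.8 ± 3.32 CPM (adjusted p 0.894, and 0.466 with the block).

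Of 11 inhibitors outside the SOCS family 0 passed on group alone and 1 with the block, where 0.663% and 2.87% of all genes were called. The list had 9 of 11 members below 0 and a median of -0.089, beside 9265 of all 15691 genes below 0 and a median of -0.038. That gene was Ptpn6, which encodes the phosphatase SHP-1. It was read at 1629, 1475 and 1688 CPM in Ctrl and at 1151, 1240 and 1187 CPM in cKO, so that the groups were well separated. Its log2 fold change was -0.42 with an adjusted p of 0.133 on group alone and 0.0205 with the block, where it fell. With the block it was not called under TMM scaling (adjusted p 0.0530) or edgeR (0.0635).

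Receptor chains upstream of these STATs held the gene that rose most among those listed. Of the 7 tested chains of the common gamma chain family, 1 was called on group alone and 2 with the block, all higher, where 0.204% and 1.24% of all genes were called higher. The list median was 0.24. Il2ra, the high-affinity IL-2 receptor chain and itself a STAT5 target, read 8.12, 9.36 and 8.44 CPM in Ctrl and 37.9, 36.2 and 39.1 CPM in cKO. It rose by 2.01 on the log2 scale with a limma adjusted p of 0.00214 and passed without any one library. Il2rb, shared by the IL-2 and IL-15 receptors, was at 2925 ± 583 and 3705 ± 721 CPM (SD, n = 3 each). Its groups overlapped (adjusted p 0.99998 on group alone), but it was higher in each pair by 0.32, 0.39 and 0.32, and rose with the block (adjusted p 0.0166).

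Of the 8 IL-12 and gp130 family chains, 0 passed on group alone and 2 with the block, where 0.663% and 2.87% of all genes were called. Both were chains of the IL-12 receptor that acts through STAT4. Il12rb1 averaged 108 ± 29.1 CPM for Ctrl and 172 ± 30.0 CPM for cKO (log2 fold change 0.69, adjusted p 0.553, and 0.00720 with the block). Its groups overlapped narrowly, with Ctrl replicate 3 at 137.6 CPM and cKO replicate 1 at 137.3 CPM. Il12rb2 was at 312 ± 30.7 and 417 ± 49.9 CPM (log2 fold change 0.41, adjusted p 0.442, and 0.0316 with the block). None of the 5 tested interferon and IL-10 receptor chains passed in either fit. Osmr and Lifr, of the gp130 family, were at 0 reads in both replicate 3 libraries and read up to 17.2 CPM in the others.

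Genes known as STAT targets were counted as 2 further lists, and STAT activity itself was not measured. Cish, Socs2 and Il2ra, also STAT5 targets, were listed elsewhere and are not in these counts. Among 11 STAT5 targets 8 were above 0, with a median of 0.14, and 0 passed on group alone. With the block 1 passed (2.87% of all genes did), Pim2, a survival kinase gene that averaged 89.2 ± 3.72 CPM for Ctrl and 124 ± 17.3 CPM for cKO (SD over 3 libraries each; adjusted p 0.0312 with the block, 0.285 without). Cish differed in sign from Il2ra and Pim2, which are also STAT5 targets. It shared its sign with the 3 of the 11 targets that were below 0, none of them called in either fit. Among 10 tested STAT4 and STAT3 targets 9 were above 0, with a median of 0.34. Beside these 2 lists, 6426 of all 15691 genes were above 0, with a median of -0.038. Of the 10, 0 passed on group alone. The gene that passed with the block was Il18rap, a chain of the IL-18 receptor, at 327 ± 25.3 and 535.5 ± 72.3 CPM (adjusted p 0.0795, and 0.00158 with the block). Over the 61 other pathway genes tested, 1 was called on group alone and 7 with the block, against 0.663% and 2.87% of all genes.

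**Figure D4:**
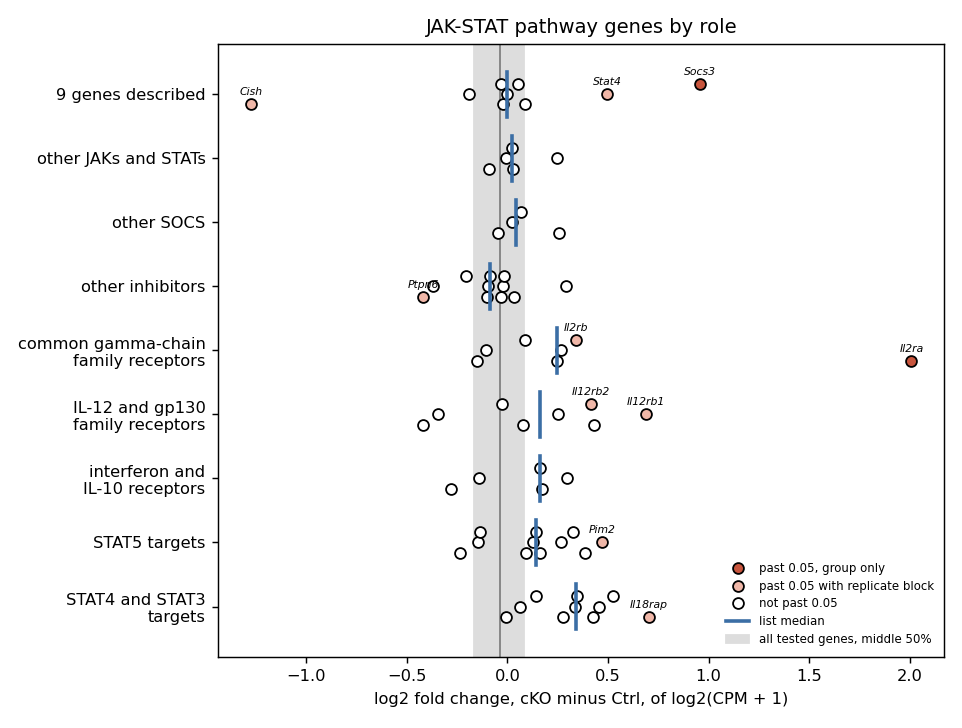
Log2 fold change, cKO minus Ctrl, of each tested pathway gene, by role. Filled points passed an adjusted p of 0.05 on group alone (dark) or with the replicate block only (pale), blue lines are list medians, and the grey band holds the middle 50% of all 15691 tested genes. Il2ra and Socs3 are the dark points, and Cish is the pale point furthest to the left.

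For each of the 9 genes the pathway gene with the most similar profile was found by Pearson's r of log2(CPM + 1) over the 6 libraries after the mean of each replicate number was subtracted. This leaves 3 independent differences, 1 per pair, so a high r mainly says that 2 genes had cKO-to-Ctrl differences in like proportion. Stat4 was nearest to Tbx21 (r = 0.999), Socs3 to Il2ra (0.994) and Cish to Ptpn1 (0.995), among 69 genes compared. The nearest genes of the others were Ptpn11 for Jak3 (0.918), Il6st for Stat3 (0.977), Osm for Stat5a (0.960), Stat6 for Stat5b (0.913), Sh2b3 for Socs1 (0.991) and Osmr for Socs2 (0.995). The last of these rests on 2 differences, since Osmr was at 0 reads in both replicate 3 libraries. All the genes share the same libraries and depth, and no test was made.

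The count of called genes among the 9 moved with the setting. It stayed at 1 (Socs3) with a pseudocount of 0.5 CPM (0.663% of all genes called) or 5 CPM (0.701%), with no filter on low values (0.601%) and with a minimum mean of 5 CPM (1.25%). It was 0 with TMM scaling (0.625%) and with edgeR (0.261%). It was 3 (Socs3, Stat4 and Cish) with TMM scaling and the replicate block (3.27%), with edgeR and the block (2.99%) and with DESeq2 (3.52%).

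**Figure D5:**
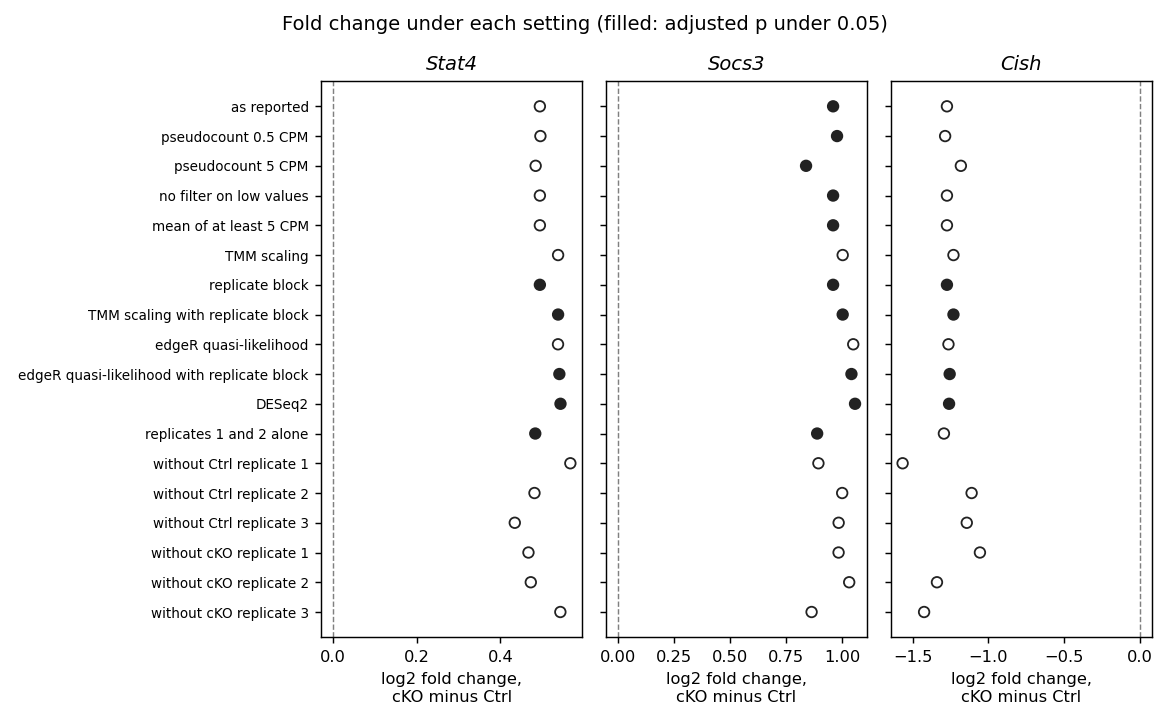
Log2 fold change, cKO minus Ctrl, of Stat4, Socs3 and Cish under each setting (rows), filled where the adjusted p is under 0.05. Each gene keeps its sign in every row. Stat4 and Cish are filled in every fit with the replicate block on all libraries and under DESeq2 without it. Stat4 is also filled in replicates 1 and 2 alone, and no gene is filled where 1 library is left out.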

How the data were processed

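RNA was sequenced from 3 Ctrl and 3 cKO libraries of thymic iNKT1 cells, read to 75 bases per the labels. Per the submitters' processing notes Trimmomatic 0.33, STAR 2.5.2, HTSeq 0.6.1, edgeR and the build mm10 were used, with other settings not given in the sources used here. The authors deposited CPM per library and gene. Per the file headers they also deposited their comparison: the log2 fold change, the mean log2 CPM, the likelihood-ratio statistic (a score), and the p-value before and after adjustment. Columns named WT and KO were taken as Ctrl and cKO, by replicate number. The CPM were whole multiples of 1 read in 100% of values (tolerance 0.01 reads), which gave library totals and whole reads.

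limma 3.58.1 was run in R 4.3.3 on log2(CPM + 1) for genes averaging 1 CPM or more across all libraries. Group was the only term, with trend and robust moderation and adjustment over all 15691 genes. Intervals are limma's at 95%. Alternatives were other pseudocounts and filters, TMM scaling, the replicate block, edgeR 4.0.16 and DESeq2 1.42.0 on the recovered reads, and leaving out libraries. Scripts were tested on simulated data. Same-numbered libraries deviated together from their group means (r = 0.855, 0.687 and 0.924 for numbers 1 to 3 over 15691 genes). With both replicate 3 libraries apart from the rest, replicates 1 and 2 deviate together from a mean of 3 whatever their pairing. These r therefore cannot show that numbers 1 and 2 are pairs, and Ctrl replicate 1 with cKO replicate 2 also gave 0.578. The numbers were treated as pairs as a choice, which the labels do not state. Ctrl replicate 2 correlated best with cKO replicate 1 (0.718).

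All 9 genes were named whatever their result, as were the other JAK, STAT and SOCS genes, except that 1 gene and 1 list of targets are not reported here. From each other pathway list, up to 4 genes past the threshold in either fit were named. Insl3 and Gm28177 were named for their overlap, and Il4, Klrb1c, Klrc2, Osmr and Lifr after their values were seen. The members and lists were chosen with earlier results of these data known. The listed names Il9r, Ifngr2 and Hlx were matched to no row and are not analysed here. Exon lengths and overlaps are from GENCODE M21 and promoter windows from RefSeq, both on GRCm38, the assembly of mm10. Of the 9 genes 8 have the same start and end in GENCODE M21 as in the table, and Socs1 differs. Promoters matched 8 of the 9; Socs2 is not shown.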

Additional observations from a re-analysis of the deposited data

How the results depend on the processing

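The 3 genes with separated groups kept their direction in all 11 alternatives and in all 6 fits that each left out a library. Socs3 passed in 9 of the 11 and not under TMM scaling (adjusted p 0.0571) or edgeR (0.100), Stat4 in 5 and Cish in 4. In the 6 fits none of these 3 passed, with log2 fold changes of 0.86 to 1.03, 0.43 to 0.57 and -1.57 to -1.06. The causes were not tested, although those fits have fewer libraries. Of the 9 genes 1 was called. That count was 0 under TMM scaling and edgeR, 3 with the replicate block, under TMM scaling with the replicate block, edgeR with the replicate block and DESeq2, 2 in replicates 1 and 2 alone, and from 0 to 0 in the fits leaving out a library. Over all genes the count of 104 became 451 with the replicate block, 513 under TMM scaling with the block, 41 under edgeR, 469 under edgeR with the block, 552 under DESeq2 (which gave no adjusted p to 3042 genes) and 296 in replicates 1 and 2, and ran from 14 to 97 with a library left out. The replicate block changed no other call among the 9 genes.

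Genes near 0 changed sign. Under TMM scaling, with and without the replicate block, Jak3 was at 0.039, Stat5b at 0.010, Socs1 at 0.023 and Jak1 at 0.037. Under edgeR, edgeR with the block and DESeq2, Jak3 was at 0.039, 0.040 and 0.045, Stat5b at 0.011, 0.011 and 0.017, and Jak1 at 0.036, 0.037 and 0.041, and Socs1 was at 0.022 under edgeR with the block. In replicates 1 and 2 Socs1 was at 0.14, Socs4 at 0.048 and Socs7 at -0.12. With a library left out, log2 fold changes ran from -0.092 to 0.068 for Jak3, -0.12 to 0.053 for Stat5b, -0.29 to 0.27 for Socs1, -0.019 to 0.20 for Socs2, -0.078 to 0.049 for Jak1, -0.058 to 0.12 for Tyk2, -0.13 to 0.18 for Stat2, -0.14 to 0.073 for Socs4, -0.15 to 0.22 for Socs6 and -0.13 to 0.19 for Socs7. None of the 9 genes was near 0 reads, and their lowest value was 588 reads.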
